A study of Mus musculus with 23 samples.

Results

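Livers of mice that lack both interleukin-4 and interleukin-10 were compared with wild-type livers after a high-fat diet, across all genes of the deposited estimated counts. The comparison holds 8 of the 23 libraries of the series, chosen by their titles: 4 labelled as IL-10/IL-4 double knockout on the high-fat diet (dKO_HFD) and 4 labelled as wild type on the high-fat diet (WT_HFD). Both groups were male mice on a C57Bl6 background, supplied at 6 to 8 weeks of age and then given a diet with 60% of its energy as fat for 15 weeks, and each library came from the perfused liver of 1 mouse. Both genotypes on chow (dKO_chow and WT_chow, 4 mice each) and the IL-4 single knockout on the high-fat diet (IL4KO_HFD, 3 mice) are given beside the results. The labels name neither a Cre driver nor a transgene, and do not say how the knockout alleles were made or whether wild-type and knockout mice were littermates.

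Interleukin-4 is a cytokine of type 2 immunity that acts through STAT6 and drives alternative macrophage activation, and interleukin-10 is an anti-inflammatory cytokine that acts through STAT3. In the liver their receptors are carried by macrophages and other leukocytes and, for interleukin-4, also by hepatocytes. A high-fat diet leads to fat storage in hepatocytes, where SREBP-1c and SREBP-2 drive fatty acid and cholesterol synthesis and NRF2 drives glutathione and NADPH producing enzymes.

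Library totals were 8601857 to 18240402 counts in WT_HFD and 12692787 to 25460163 in dKO_HFD. After a filter on low counts, 12891 of 24440 genes entered a two-sided quasi-likelihood test in edgeR, and a gene was called at a Benjamini-Hochberg false discovery rate (FDR) below 0.05. Levels are CPM (counts scaled to the effective library size, not corrected for gene length) and differences are log2 fold changes, dKO minus WT, with their standard error (SE). The Y-linked gene Ddx3y had 395 to 1605 counts in the 8 libraries and Xist 0 to 3, so no library went against its label of male. The hepatocyte genes Alb (log2 difference 0.12), Apob (0.07) and Apoh (0.04) were not called.

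The replicate numbered 4 of dKO_HFD stood apart from the other 7 libraries. On the first principal component of log2 CPM, which held 39.01% of the variance, it lay at 43.1, against -10.23 to -17.19 in dKO_HFD replicates 1 to 3, -13.64 to -21.95 in WT_HFD and 64.64 to 74.76 in dKO_chow. Its neutrophil marker S100a8 was at 15.5 CPM against 0.371 to 0.602 CPM in dKO_HFD replicates 1 to 3, and the acute phase gene Saa1 was at 1808 CPM against 69.7 to 107 CPM. Most counts below are given with and without that library.

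In all, 3157 genes were called, which is 24.5% of those tested. Of these, 1662 were higher in dKO_HFD (12.9% of tested genes) and 1495 were lower (11.6%). All counts of list members in this comparison stand beside these shares, and a count near them is no trait of its list. Most differences were small, with a median absolute log2 fold change of 0.49 among called genes. At least 2-fold differences were called for 263 genes that rose and 319 that fell, and at least 4-fold differences for 76 and 74. The CPM of the 4 and 4 libraries did not overlap for 2513 of the called genes, and 25.0% of all tested genes had no overlap. The median over all tested genes was 0.01. Without dKO_HFD replicate 4, 2795 genes were called (21.8%), of which 2433 were shared in the same direction, equal to 77.1% of the calls with all libraries and 87.0% of the calls without it, and 0 were called in opposite directions.

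The targeted genes were low in liver. Il4 (chr11:53612460-53618665) had 0 counts in all 4 WT_HFD libraries and 0, 1, 1 and 1 counts in dKO_HFD, and was not tested. Il10 (chr1:131019845-131024970) had 0, 4, 1 and 1 counts in WT_HFD and 6, 8, 17 and 21 counts in dKO_HFD, so the libraries labelled double knockout held more Il10 counts than the wild type. In CPM the dKO_HFD values were 0.452, 0.33, 0.789 and 1.64 against 0 to 0.308 in WT_HFD (log2 fold change 2.68, SE 0.72, edgeR FDR 0.0108). It was called from the counts but not called from the deposited log2 file (0.67, limma FDR 0.0508). A gene total says nothing of the deleted stretch and so is no check of the deletion, and every direction below refers to the libraries labelled dKO. Of 21 tested genes of the IL-4 and IL-10 pathway, 5 rose and 0 fell (median 0.17), and 3 rose and 1 fell without dKO_HFD replicate 4. Cd163, a haemoglobin scavenger receptor of macrophages, rose from 17.6, 12.9, 23.0 and 17.3 to 25.4, 30.9, 45.2 and 50.1 CPM (1.11, SE 0.29, FDR 0.0108). The receptor genes Il4ra (0.17), Il10ra (-0.21) and Il10rb (-0.45) and the signal transducer Stat6 (0.19) were not called.

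**Figure D1:**
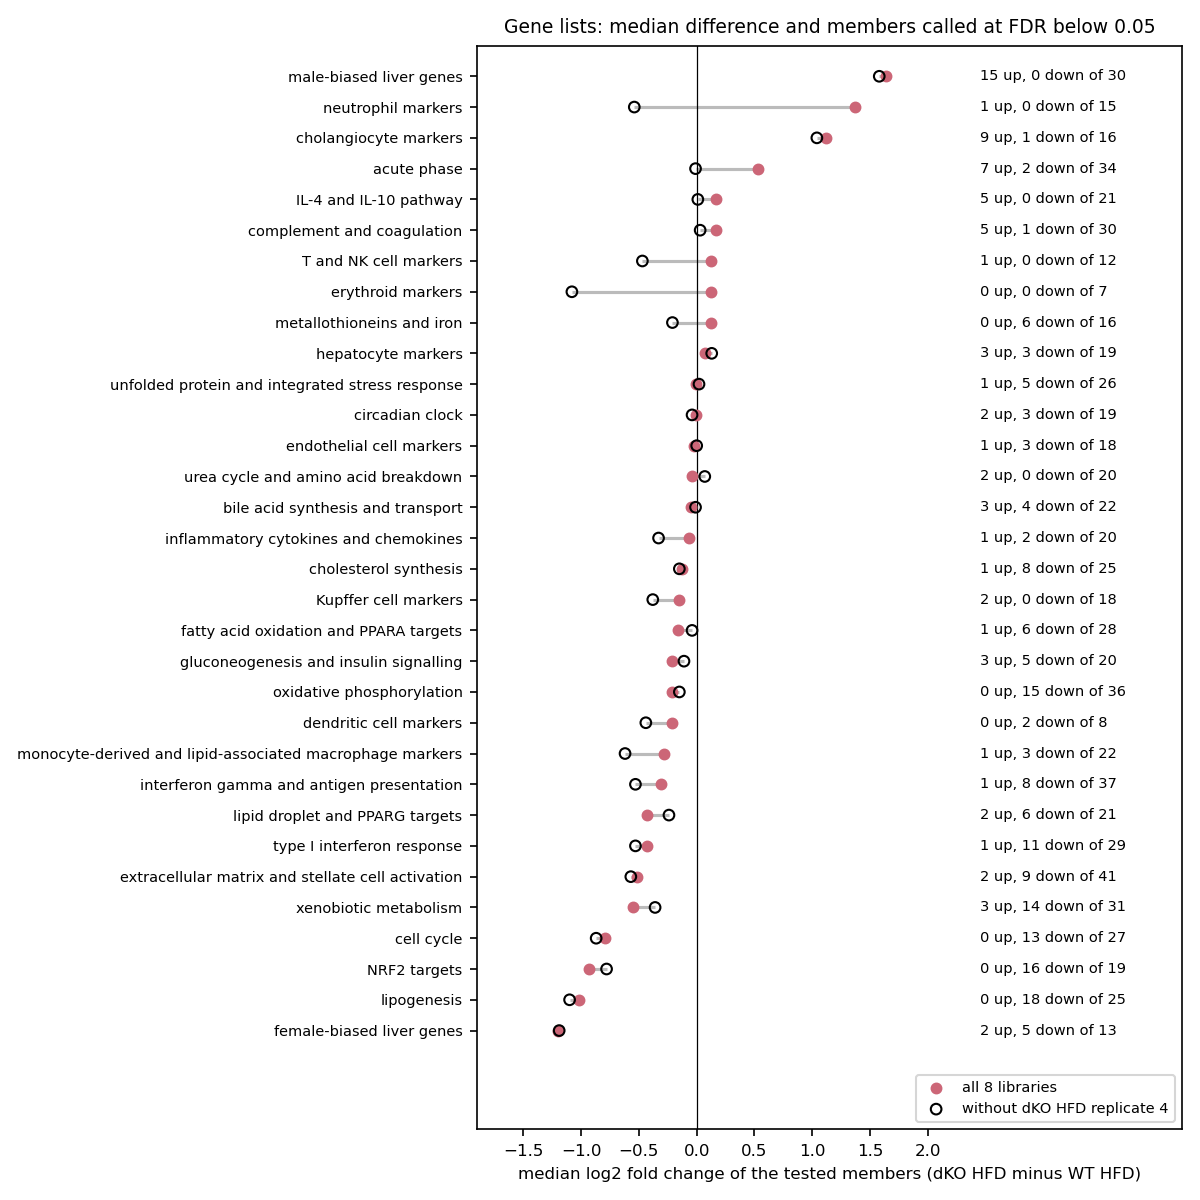
Median log2 fold change (dKO_HFD minus WT_HFD, horizontal axis) of the tested members of 32 gene lists with at least 5 tested members, with all 8 libraries (filled) and without dKO_HFD replicate 4 (open), and the number of members called in each direction at right. Lipogenesis, NRF2 targets, cell cycle and male-biased liver genes lie far from 0 either way, while neutrophil markers move from 1.37 to -0.54 and acute phase genes from 0.53 to -0.01.

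Genes of fatty acid synthesis were lower in the double knockout. Of 25 tested genes of the lipogenesis list, 18 fell, 0 rose and 7 were not called, with a median of -1.02 against 0.01 over all genes. Without dKO_HFD replicate 4, 15 fell and 0 rose (median -1.10). The members that fell included genes from the supply of acetyl-CoA to the first step of glycerolipid synthesis. Of the 25, 17 had no overlap between the 8 libraries in the lower direction, against 12.1% of all tested genes.

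Acly, which makes cytosolic acetyl-CoA from citrate, was at 718, 581, 560 and 793 CPM in WT_HFD and 250, 257, 198 and 213 CPM in dKO_HFD. All 4 dKO_HFD values were under the lowest WT_HFD value, a difference of -1.53 (SE 0.17, edgeR FDR 2.86e-06). Fasn, the fatty acid synthase gene at chr11:120805958-120825166, was at 2117, 1321, 1534 and 1728 CPM against 397, 390, 295 and 404 CPM, which is 4.51-fold lower (-2.17, SE 0.25, FDR 9.1e-06). Elovl6, which extends palmitate to stearate, went from 322, 196, 203 and 275 to 72.6, 60.4, 41.9 and 54.4 CPM (-2.12). Scd1, the desaturase that makes oleate, had a mean of 15769 CPM in WT_HFD and 5546 CPM in dKO_HFD (-1.51, FDR 0.0296), with WT_HFD replicate 1 highest at 22999 CPM. Me1, a source of NADPH for synthesis, ranged from 307 to 440 CPM in WT_HFD, and was at 128, 94.9, 127 and 21.6 CPM in dKO_HFD, lowest in replicate 4 (-1.96, and -1.63 without replicate 4).

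The transcription factor gene Srebf1, which encodes SREBP-1c, fell by 0.96 (SE 0.23, FDR 0.00585), from a mean of 373 to 191 CPM. Mlxipl, which encodes the carbohydrate-sensing factor ChREBP, was not called (0.12). Gpam, the first step of glycerolipid synthesis, fell from 278, 191, 284 and 296 to 126, 129, 114 and 92.2 CPM (-1.19, FDR 9.78e-06). The last step of triglyceride synthesis, Dgat1 (-0.16) and Dgat2 (-0.17), was not called. Pnpla3, a lipid droplet protein gene that SREBP-1c induces, had the largest fall of the list, from 29.9, 8.55, 17.5 and 8.5 CPM to 1.05, 0.371, 1.11 and 1.41 CPM (17.1-fold, -4.09, SE 0.73, FDR 0.000766).

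Cholesterol synthesis genes were divided. Of 25 tested, 8 fell and 1 rose (median -0.13), and 6 fell and 1 rose without dKO_HFD replicate 4. Leaving out WT_HFD replicate 2 or 4, or dKO_HFD replicate 1 or 3, left 5 that fell. Insig1, which retains SREBP in the endoplasmic reticulum and is itself a target of it, was at 431, 454, 427 and 670 CPM in WT_HFD and 209, 276, 160 and 219 CPM in dKO_HFD (-1.20, FDR 0.000366). Sc5d, a late enzyme of sterol synthesis, was at 835, 758, 769 and 959 CPM against 429, 495, 387 and 455 CPM (-0.91, FDR 2.09e-05). The groups did not overlap for either gene, while Sqle (0.37), Cyp51 (0.30), Idi1 (0.53) and Msmo1 (0.00) of the same pathway were not called. The member that rose was Srebf2, which encodes SREBP-2 (0.37, FDR 0.02).

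Promoter sequences are shown for 4 SREBP-related genes that fell, Fasn, Insig1, Sc5d and Pnpla3. SREBP is known to bind sterol regulatory elements and E-boxes beside NF-Y, which binds CCAAT. In RefSeq sequences of GRCm38.p6, the 250 bases before each transcript start were searched on both strands for CCAAT, for CACGTG (the E-box) and for TCACNCCAC (a sterol regulatory element, N being any base). CCAAT was present in 15 of the 29 promoters of lipogenesis genes (51.7%), in 16 of the 20 promoters of cholesterol synthesis genes, and in 33.8% of all 32851 promoters. CACGTG was present in 4 and 4 of these promoters, against 6.02% of all promoters, and TCACNCCAC in 1 and 1, against 1.05%. All 4 promoters shown hold a match, which is not so for every gene that fell. The promoter of Acly held none of these motifs, and Gpam and Srebf1 each also had a promoter with none. A match is a description of letters and shows no binding. Matches are in capitals, ATTGG being CCAAT on the other strand, and each sequence reads 5′ to 3′ on the strand of its gene.
Fasn: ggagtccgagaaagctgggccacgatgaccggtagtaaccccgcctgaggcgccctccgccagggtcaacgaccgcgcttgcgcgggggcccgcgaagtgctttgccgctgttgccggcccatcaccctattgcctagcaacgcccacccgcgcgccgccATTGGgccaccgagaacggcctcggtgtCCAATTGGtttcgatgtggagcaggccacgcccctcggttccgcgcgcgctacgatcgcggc
Insig1: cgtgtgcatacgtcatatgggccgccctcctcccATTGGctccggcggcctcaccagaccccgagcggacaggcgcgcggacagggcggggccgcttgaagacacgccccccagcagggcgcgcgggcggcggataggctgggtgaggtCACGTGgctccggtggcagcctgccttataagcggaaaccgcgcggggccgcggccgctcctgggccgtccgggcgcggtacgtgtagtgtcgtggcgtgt
Sc5d: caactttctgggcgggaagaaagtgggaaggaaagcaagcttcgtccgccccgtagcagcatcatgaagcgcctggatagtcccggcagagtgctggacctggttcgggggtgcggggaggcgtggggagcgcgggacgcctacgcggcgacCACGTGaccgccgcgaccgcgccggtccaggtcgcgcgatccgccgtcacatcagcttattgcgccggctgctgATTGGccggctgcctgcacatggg
Pnpla3: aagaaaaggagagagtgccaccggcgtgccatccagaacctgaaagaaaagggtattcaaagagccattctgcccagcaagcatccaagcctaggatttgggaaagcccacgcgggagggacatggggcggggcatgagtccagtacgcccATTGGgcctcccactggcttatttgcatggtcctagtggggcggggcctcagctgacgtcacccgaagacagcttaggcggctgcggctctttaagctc
The Fasn sequence is chr11:120824548-120824797 on the minus strand, and its CCAAT matches begin 90, 62 and 59 bases before the start, the last pair overlapping. The Insig1 sequence is chr5:28071162-28071411 on the plus strand, with an E-box 101 and a CCAAT match 216 bases before the start. The Sc5d sequence is chr9:42264301-42264550 on the minus strand, with an E-box at 98 and a CCAAT match at 24 bases before the start. The Pnpla3 sequence is chr15:84167566-84167815 on the plus strand, with 1 CCAAT match 99 bases before the start.

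Among genes of fat storage and uptake, falls and rises were both found. Of 21 tested lipid droplet and PPARG target genes, 6 fell and 2 rose (median -0.43), and 6 fell and 3 rose without dKO_HFD replicate 4. Without WT_HFD replicate 1 or dKO_HFD replicate 2, 3 fell, and 1 rose without either of these, WT_HFD replicate 2 or 4 or dKO_HFD replicate 3. The fatty acid transporter Cd36 fell from a mean of 317 to 126 CPM (-1.32, SE 0.39, FDR 0.021). Hilpda, an inhibitor of fat breakdown, was at 4.94, 6.0, 4.79 and 12.5 CPM against 3.01, 2.8, 2.83 and 3.59 CPM (-1.24, FDR 0.0022, and -0.79 without WT_HFD replicate 4). Lipe, which encodes hormone-sensitive lipase, rose from 17.5, 18.9, 18.1 and 18.4 to 34.7, 36.0, 25.8 and 29.7 CPM (0.79, SE 0.12, FDR 8.25e-05), and the adipose triglyceride lipase gene Pnpla2 rose by 0.32 (FDR 0.0485). The droplet coat genes Plin2 (-0.50), Plin4 (-0.48) and Cidec (-0.65) were not called. Vldlr, which takes up triglyceride-rich lipoproteins, fell from 36.7, 31.8, 35.2 and 31.8 to 1.51, 1.81, 5.76 and 1.02 CPM (12.6-fold, -3.66, SE 0.41, FDR 9.74e-06). It was also lower in dKO_chow than in WT_chow (-3.58, edgeR FDR 5.32e-06) and in IL4KO_HFD than in WT_HFD (-1.84, FDR 0.0223).

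In the list of fatty acid oxidation with PPARA target genes, 6 of 28 fell and 1 rose, and 2 fell and 2 rose without dKO_HFD replicate 4. The count that fell was 2 also without WT_HFD replicate 1 or 3 or dKO_HFD replicate 2. Its median was -0.16, and the list's level, the members' mean log2 CPM relative to their average over the 23 libraries, was -0.56 in replicate 4, 0.33 to 0.71 in dKO_HFD replicates 1 to 3 and 0.54 to 0.79 in WT_HFD, and the part of that library in the result was not tested. Acaa1b, a peroxisomal thiolase, went from 2943, 2233, 2649 and 2386 to 1324, 909, 1163 and 346 CPM (-1.45, FDR 0.00173), and Cpt1a (0.21) and Ppara itself (0.00) were not called. Of 36 oxidative phosphorylation subunits, 15 fell and 0 rose with small differences (median -0.21). Without dKO_HFD replicate 4, 7 fell, and without WT_HFD replicate 1 or 2, 9 and 8 fell. Ndufb8, a subunit of complex I, had the lowest FDR, at 123, 122, 112 and 109 CPM against 90.6, 91.3, 86.2 and 71.6 CPM (-0.46, FDR 0.000809).

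Genes of glucose handling moved in both directions. Of 20 tested, 5 fell and 3 rose, with the same counts without dKO_HFD replicate 4. Among all tested genes, 11.6% fell and 12.9% rose, and the counts that rose here and in the bile acid list are near that share. Fbp1, an enzyme of gluconeogenesis, fell from 1194, 1217, 1241 and 1159 to 769, 799, 775 and 614 CPM (-0.70, SE 0.09, FDR 2.96e-05). Igfbp1, a secreted binder of insulin-like growth factors, fell from a mean of 423 to 74.0 CPM (-2.51, FDR 0.00678). The insulin receptor substrates Irs1 (13.6, 14.9, 14.4 and 11.8 against 21.5, 28.1, 22.3 and 23.4 CPM, 0.82, FDR 4.2e-05) and Irs2 (0.94, FDR 0.00462) rose. Pck1 (-0.11) and G6pc (-0.17) were not called. In bile acid genes, 4 of 22 fell and 3 rose, also without dKO_HFD replicate 4, and 1 rose without WT_HFD replicate 1. Nr0b2, the bile acid induced repressor SHP, fell from 43.0, 58.3, 53.4 and 37.3 to 14.6, 15.5, 16.8 and 16.6 CPM (-1.59, FDR 8.24e-05), and Cyp7a1 (-0.03) and Cyp8b1 (-0.05) were not called.

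**Figure D2:**
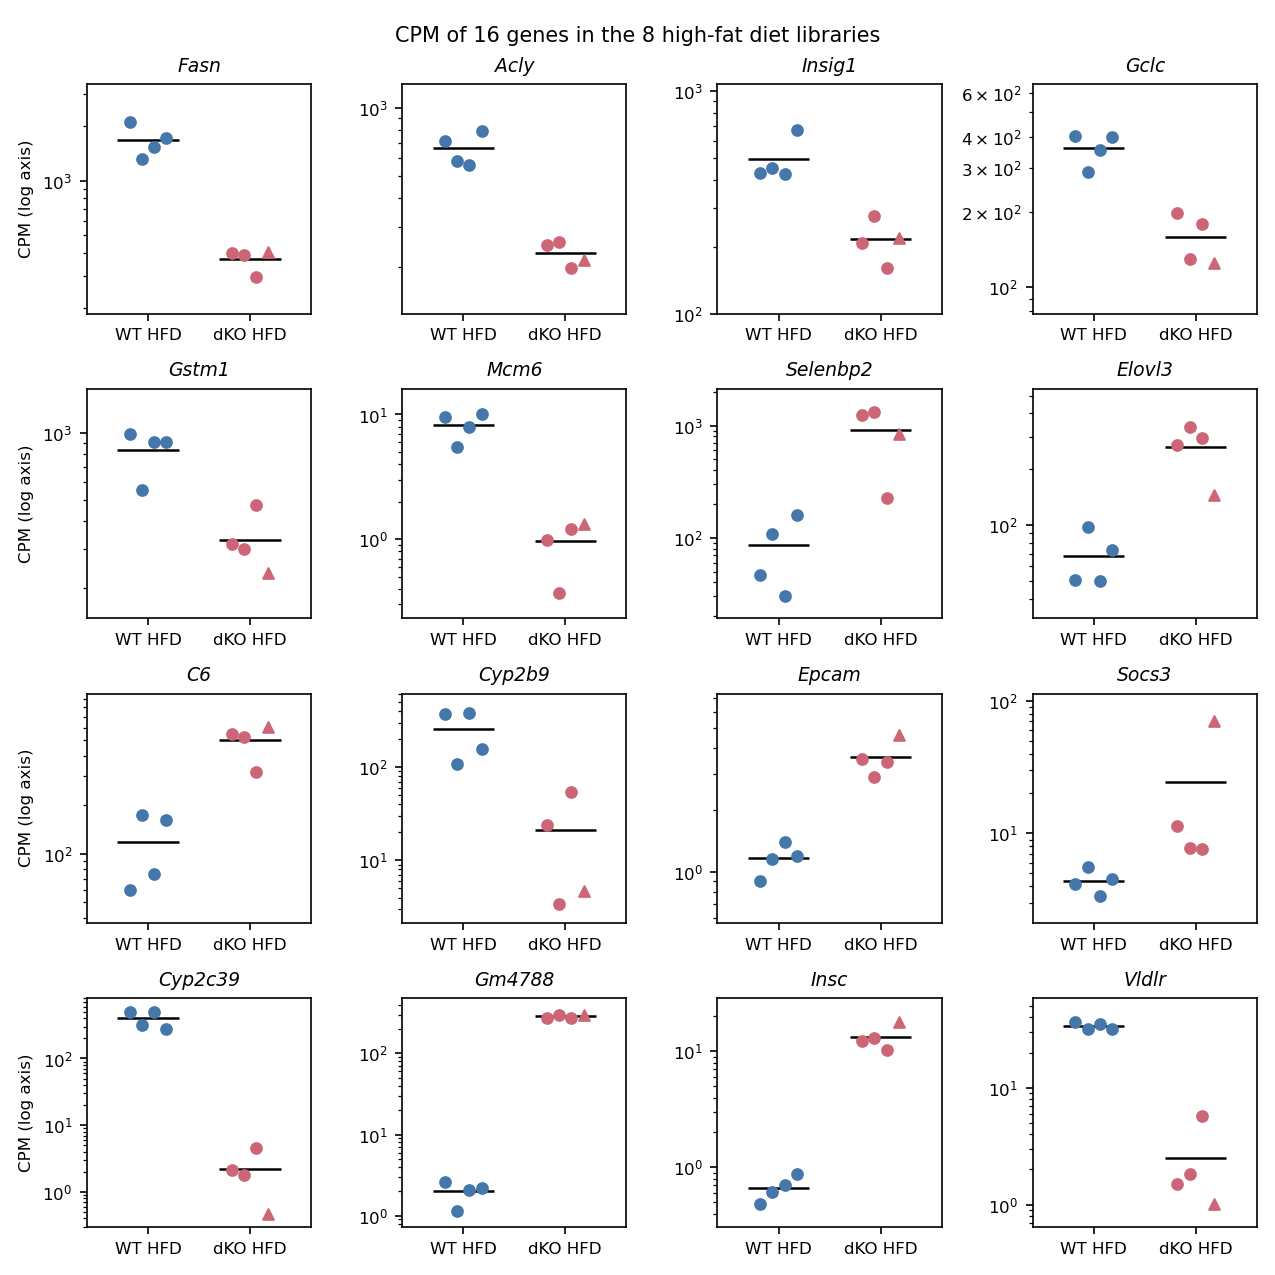
CPM (log axis) of 16 genes in each of the 4 WT_HFD and 4 dKO_HFD libraries, with a line at the mean of each group and triangles for dKO_HFD replicate 4. The groups do not overlap for any of the 16 genes, and for Socs3 replicate 4 lies far above the other libraries.

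Most NRF2 target genes were lower. Of 19 tested, 16 fell, 0 rose and 3 were not called (Hmox1 at -0.56, Gstm2 at -0.80 and G6pdx at -0.36), with a median of -0.93. Without dKO_HFD replicate 4, 17 fell and 0 rose. Gclc, the catalytic subunit of the rate-limiting enzyme of glutathione synthesis, was at 404, 288, 352 and 399 CPM against 198, 130, 179 and 125 CPM (-1.19, SE 0.17, FDR 8.2e-05). Its regulatory partner Gclm fell by 0.23 (FDR 0.011). Nqo1, a quinone reductase widely read as an NRF2 target, was at 14.4, 10.9, 15.7 and 13.1 CPM against 4.97, 3.5, 6.69 and 2.34 CPM (-1.60, FDR 0.000212). Every dKO_HFD value of these 3 genes was below every WT_HFD value.

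Of the glutathione transferases, Gstm1 fell, at 988, 553, 908 and 913 CPM against 316, 299, 470 and 232 CPM (-1.35, FDR 0.000525), as did Gsta1, at 26.8, 8.39, 17.3 and 30.2 CPM against 1.96, 0.659, 2.74 and 0.0 CPM (-3.90, FDR 0.00334). Reads of near-identical Gsta and Gstm copies may be split between them. Of the pentose phosphate enzymes, which supply NADPH, Tkt fell from 291, 228, 238 and 250 to 163, 142, 144 and 125 CPM (-0.81, FDR 0.000115) and Pgd by 0.98 (FDR 0.00072). The promoter of Pir, an iron-binding nuclear protein gene that fell from 22.3, 18.1, 22.1 and 21.3 to 11.8, 13.2, 14.7 and 9.76 CPM (-0.75, FDR 0.000163), is shown as an example with the antioxidant response element that NRF2 binds, searched as TGACNNNGC on both strands. It was present in 5 of the 22 promoters of the list (22.7%), against 10.2% of all promoters. The promoters of Nqo1 and Tkt held none, and the search was added after the values were seen.
Pir: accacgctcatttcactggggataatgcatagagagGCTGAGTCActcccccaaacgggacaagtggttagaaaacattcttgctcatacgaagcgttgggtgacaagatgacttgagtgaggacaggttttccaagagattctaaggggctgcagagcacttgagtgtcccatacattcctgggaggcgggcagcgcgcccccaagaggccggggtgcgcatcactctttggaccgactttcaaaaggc
This is chrX:164269181-164269430 on the plus strand of GRCm38.p6 from RefSeq, with the element, on the other strand, in capitals 214 bases before the start.

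Other detoxification genes were mixed. Of 31 tested xenobiotic genes, 14 fell and 3 rose (median -0.55), also without dKO_HFD replicate 4, and 3 of those that fell (Gstm1, Gstm3 and Gsta2) are NRF2 list members too. Cyp3a11, a main drug-oxidizing cytochrome, was at 2499, 1584, 1865 and 1729 CPM against 656, 296, 643 and 226 CPM (-2.08, FDR 0.000564). Cyp2c50 rose from 95.3, 214, 129 and 162 to 604, 727, 582 and 480 CPM (1.99, FDR 0.000137). Ugt1a1, the bilirubin transferase, fell by 1.01 (SE 0.13, FDR 2.07e-05), but genes of that cluster share exons and cannot be told apart with certainty in gene counts. Hamp and Hamp2, near-identical genes of the iron hormone hepcidin family, were both lower by 2.88 (FDR 0.0288 and 0.013), with Hamp at 125, 91.6, 138 and 76.9 CPM against 11.5, 16.9, 28.9 and 0.234 CPM. The ferritin gene Ftl1 fell by 0.73 (FDR 0.00206).

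For the stress genes Atf3 and Asns the size of the difference depended on single libraries, while for Ddit3 it did not. Ddit3 was at 8.07, 10.2, 8.29 and 11.6 CPM against 5.8, 4.53, 3.81 and 3.44 CPM (-1.13, FDR 0.000636). It was at -1.05 without dKO_HFD replicate 4, and was called under all 17 alternative settings. Atf3, a stress-induced transcription factor gene, was at 5.01, 7.31, 4.91 and 89.8 CPM in WT_HFD and 1.13, 0.659, 2.6 and 1.72 CPM in dKO_HFD (-4.16, SE 0.86, FDR 0.00235), with WT_HFD replicate 4 far above the others. Without that library the difference was -1.91 (FDR 0.00484), and all WT_HFD values lay above every dKO_HFD value. Asns, asparagine synthetase, was at 0.209, 1.15, 0.35 and 0.763 CPM against 2.03, 7.46, 3.39 and 39.4 CPM, and its difference went from 4.29 to 2.78 without dKO_HFD replicate 4 (FDR 0.00444 and 0.0118). The chaperones Hspa5 (-0.23) and Hsp90b1 (0.02) of the unfolded protein response were not called, and 5 of the 26 tested genes of that list fell and 1 rose. Without dKO_HFD replicate 4, 6 fell and 1 rose, and without dKO_HFD replicate 3, 2 rose.

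Among genes with a sex bias in mouse liver, 15 of 30 male-biased ones rose and 5 of 13 female-biased ones fell, in mice that were all male. Growth hormone pulses are known to set this sex bias in mouse liver. Of 30 tested male-biased genes, 15 rose and 0 fell (median 1.64), and 12 rose and 0 fell without dKO_HFD replicate 4. Of 13 female-biased genes, 5 fell and 2 rose (median -1.20), and 6 fell and 2 rose without it. The calls depended on several libraries: 6 male-biased genes rose without WT_HFD replicate 1, 8 without WT_HFD replicate 3 and 9 without dKO_HFD replicate 2. The level of the male-biased list was -2.0, -0.15, -1.65 and -0.47 in WT_HFD and 1.25, 1.35, 0.07 and 0.85 in dKO_HFD. WT_HFD replicates 1 and 3 were lowest, and the groups did not overlap. The level of the female-biased list was 1.95, 0.90, 1.70 and 0.81 in WT_HFD and 0.03, -0.27, 1.02 and -0.78 in dKO_HFD, and here the groups overlapped through dKO_HFD replicate 3.

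Selenbp2, a selenium-binding protein gene, was at 46.6, 107, 30.6 and 158 CPM against 1230, 1322, 226 and 838 CPM (10.5-fold, 3.39, SE 0.72, FDR 0.00276). Elovl3, a fatty acid elongase, was at 50.6, 97.8, 50.1 and 73.5 CPM against 270, 339, 294 and 146 CPM (1.95, FDR 0.00497). The hydroxysteroid dehydrogenase Hsd3b5 was at 0.0695, 18.2, 0 and 3.93 CPM against 94.5, 99.5, 13.3 and 175 CPM (4.06, FDR 0.0165), with WT_HFD replicate 2 above dKO_HFD replicate 3. Mup7, of the major urinary proteins that carry pheromones, was at 3.34, 264, 13.1 and 148 CPM against 5045, 4082, 1209 and 2641 CPM (4.92, SE 1.59, FDR 0.0317). Its call was lost without WT_HFD replicate 1, 3 or 4 or dKO_HFD replicate 1 or 2 (FDR 0.0511 to 0.0737), and Mup1 (3.67), Mup14 (3.41) and Mup15 (3.95) share near-identical sequence with it. Moxd1, counted among the genes that rose, was at 0 in all WT_HFD libraries and at 0.602, 3.38, 0 and 66.7 CPM in dKO_HFD, so it overlapped the wild type at 0.

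Among female-biased genes, Cyp2b9 was at 370, 107, 384 and 157 CPM against 23.9, 3.42, 53.6 and 4.69 CPM (-3.55, FDR 0.0173), and its close copy Cyp2b13 was at 34.0, 1.15, 12.3 and 2.94 CPM against 0 CPM in all dKO_HFD libraries but replicate 3 (0.557 CPM). Abcd2, a peroxisomal fatty acid transporter, fell from 77.6, 56.2, 73.4 and 55.2 to 19.4, 15.5, 38.1 and 24.8 CPM (-1.42, FDR 0.00135). Cyp17a1, a steroid hydroxylase, went the other way, from 5.15, 2.62, 1.99 and 2.34 to 22.8, 41.3, 49.1 and 11.1 CPM (3.35, SE 0.44, FDR 5.48e-05). The growth hormone signalling genes Stat5b (-0.01) and Ghr (-0.32) were not called. The terminal complement genes C6, C8a and C8b, male-biased and also counted in the complement list, rose, with C6 at 59.8, 174, 74.4 and 162 CPM against 545, 528, 320 and 608 CPM (2.09, FDR 0.00133). Of all 30 complement and coagulation genes, 5 rose and 1 fell, and 3 rose without any 1 of WT_HFD replicates 1, 3 and 4 and dKO_HFD replicates 2 and 4. Over all tested genes, 12.9% rose and 11.6% fell.

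Replication genes were lower. Of 27 tested cell cycle genes, 13 fell and 0 rose (median -0.79), and 11 fell without dKO_HFD replicate 4. Without WT_HFD replicate 1, WT_HFD replicate 4 or dKO_HFD replicate 2, 6, 7 and 7 fell. The genes of the MCM helicase, which opens DNA for replication, made up 5 of the 13. Mcm6 was at 9.59, 5.47, 7.94 and 10.0 CPM against 0.979, 0.371, 1.21 and 1.33 CPM (8.82-fold, -3.14, SE 0.37, FDR 6.64e-06), and Mcm3 at 9.59, 5.31, 7.59 and 8.45 CPM against 3.09, 2.97, 3.85 and 3.91 CPM (-1.17, FDR 0.000164). Neither gene overlapped between the groups, and Mcm6 lies at chr1:128331575-128359705, within 10 Mb of Il10. Mki67, the common proliferation marker, was not called (-0.77), nor was Mcm7 (-0.15).

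Some interferon response genes were lower in the double knockout on this diet, against 11.6% of all tested genes that fell. Of 29 tested type I interferon genes, 11 fell and 1 rose (median -0.43), and 13 fell and 0 rose without dKO_HFD replicate 4. Without WT_HFD replicate 1, 7 fell. Usp18, an inhibitor of interferon receptor signalling, was at 18.8, 15.2, 16.6 and 15.6 CPM against 10.2, 7.29, 7.66 and 6.64 CPM (-1.06, FDR 0.00133), and Ifit3, an antiviral protein, at 26.7, 13.3, 22.2 and 15.0 CPM against 11.3, 8.2, 8.87 and 7.73 CPM (-1.09, FDR 0.00164). Of 37 genes of interferon gamma response and antigen presentation, 8 fell and 1 rose, and 14 fell and 0 rose without dKO_HFD replicate 4. The level of this list was 0.01 to 0.26 in WT_HFD and -0.38, -0.59, -0.43 and 0.30 in dKO_HFD, so replicate 4 lay above every WT_HFD library. Without WT_HFD replicate 1, 2 or 4 or dKO_HFD replicate 3, 5 fell, and without dKO_HFD replicate 2, 3 of the 37 fell. The guanylate-binding protein Gbp6 was at 37.1, 24.6, 32.9 and 30.6 CPM against 16.9, 9.73, 12.6 and 7.73 CPM (-1.42, FDR 0.00298).

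Acute phase genes differed mainly in 1 library. Of 34 tested, 7 rose and 2 fell (median 0.53), but without dKO_HFD replicate 4, 2 rose and 3 fell (median -0.01). The count of 2 that rose was also found without WT_HFD replicate 1 or 3, and 3 rose without WT_HFD replicate 4. Socs3, the feedback inhibitor of STAT3, was at 4.17, 5.54, 3.39 and 4.53 CPM against 11.3, 7.71, 7.66 and 70.8 CPM (2.41, FDR 0.0146), and at 0.97 (FDR 0.0803) without replicate 4. Saa4, the constitutive serum amyloid gene, rose without overlap, from 264, 331, 353 and 223 to 761, 730, 699 and 845 CPM (1.37, SE 0.26, FDR 0.00106). The inducible Saa1 (2.09) and Saa2 (2.19) were not called. Cxcl14, a chemokine, was at 1.05 to 1.64 CPM in WT_HFD and at 1.2, 1.15, 1.63 and 39.8 CPM in dKO_HFD, and its difference was 2.81 (FDR 0.0397) with replicate 4 and -0.15 (FDR 0.747) without it. In the list of 20 cytokines, chemokines and their regulators, Cxcl14 rose and Nfkbia and Tnfaip3 fell, and 0 rose and 1 fell without replicate 4. Without any 1 WT_HFD library 0 rose, and without WT_HFD replicate 1, 2 or 3 or dKO_HFD replicate 1 or 2, 1 fell. The interleukin and chemokine genes Il1b (1.10), Ccl2 (-0.61) and Cxcl10 (-1.15) were not called, and Il6 was at 0 in all 8 libraries.

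**Figure D3:**
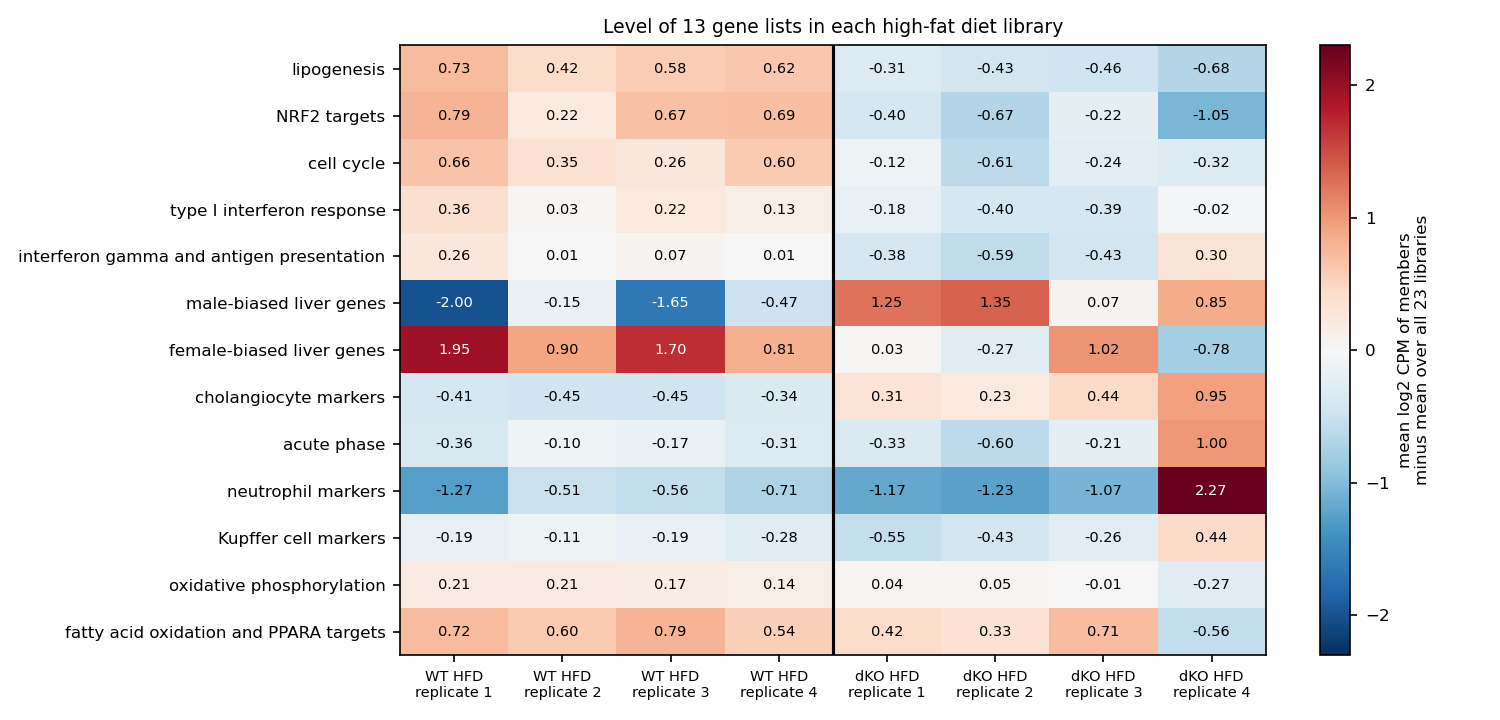
Level of 13 gene lists in each of the 8 libraries, as the mean log2 CPM of the members minus their mean over all 23 libraries (colour and printed values). The columns of WT_HFD and dKO_HFD differ in lipogenesis, NRF2 targets and cholangiocyte markers in every library, while dKO_HFD replicate 4 alone is high in neutrophil markers (2.27) and acute phase genes (1.0).

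Markers of bile duct cells were higher. Of 16 tested cholangiocyte markers, 9 rose and 1 fell (median 1.12), and 7 rose and 1 fell without dKO_HFD replicate 4 (median 1.04). Epcam, an adhesion protein of biliary epithelium, was at 0.904, 1.15, 1.4 and 1.2 CPM against 3.54, 2.88, 3.44 and 4.61 CPM (3.10-fold, 1.63, SE 0.30, FDR 0.000565). The keratin Krt19 was at 0.77 to 1.32 CPM against 1.4 to 2.81 CPM (1.17, FDR 0.0211). Tff3, a mucosal peptide, was at 0.348, 1.31, 0.234 and 0.6 CPM against 3.01, 5.89, 2.6 and 37.8 CPM (4.21, and 2.58 without replicate 4). These libraries are bulk tissue, in which more (or fewer) cells of a type and more (or less) RNA per cell cannot be told apart. The summed CPM of the list, to which the widely expressed Krt8 and Krt18 contribute, was 791 to 960 in WT_HFD and 732 to 1020 in dKO_HFD.

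Few leukocyte markers were called. Of the 8 libraries, dKO_HFD replicate 4 had the highest level of the neutrophil, Kupffer cell and macrophage lists. It was also highest for T and NK cell (0.86), B and plasma cell (0.49) and dendritic cell (0.45) markers. Of 15 tested neutrophil markers, 1 rose (Prtn3) and 0 did so without that library, and their summed CPM was 58.3 to 94.3 in WT_HFD and 25.8 to 534 in dKO_HFD. Of 18 Kupffer cell markers, 2 rose and 0 fell (median -0.15), namely Cd163 and C6, the latter also made by hepatocytes, and 1 fell without dKO_HFD replicate 3 or 4. The defining Kupffer markers Clec4f (-0.02), Timd4 (-0.19) and Vsig4 (0.10) were not called. Of 22 markers of monocyte-derived and lipid-associated macrophages, 3 fell and 1 rose (Spp1), 3 fell and 0 rose without dKO_HFD replicate 4, and 0 rose without any 1 WT_HFD library or dKO_HFD replicate 1. The level of that list was 0.37, -0.12, 0.19 and 0.01 in WT_HFD and -0.28, -0.90, -0.41 and 0.49 in dKO_HFD, so replicates 1 to 3 lay below every WT_HFD library and replicate 4 above, and its median was -0.62 without replicate 4. Trem2 (-1.03) and Gpnmb (-0.92) were not called. Of 12 T and NK cell markers, 1 rose, Cd4, from a mean of 0.834 to 2.36 CPM (1.44, FDR 0.00484, and 1.21 without dKO_HFD replicate 4). Extracellular matrix genes fell in 9 of 41 and rose in 2 (median -0.52), but between 2 and 14 fell when single libraries were left out, with 2 without dKO_HFD replicate 2, 3 and 4 without WT_HFD replicates 1 and 4, 5 without dKO_HFD replicate 3 and 14 without WT_HFD replicate 2. Without dKO_HFD replicate 4, 7 fell and 0 rose. Lrat, a vitamin A storing enzyme of stellate cells, fell from 24.4, 27.5, 27.7 and 32.8 to 14.8, 12.9, 16.9 and 14.4 CPM (-0.93, FDR 0.00139), and the collagen gene Col1a1, at 51.0, 13.9, 36.4 and 26.9 CPM against 16.5, 3.54, 11.9 and 8.05 CPM (-1.70), was not called.

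The other lists covered amino acid and iron handling, the clock and further cell types. Their counts stand against 12.9% of all tested genes that rose and 11.6% that fell. In the urea cycle list 2 of 20 rose, and 4 without dKO_HFD replicate 4, with Cps1, its first enzyme, at 2142, 2680, 3217 and 2474 CPM against 4106, 5576, 4793 and 3410 CPM (0.77, SE 0.19, FDR 0.00545). Among 19 circadian genes, 2 were called higher and 3 lower, against 3 higher and 1 lower without dKO_HFD replicate 4, and 1 higher without WT_HFD replicate 1. The core clock activator Clock rose from 29.2, 30.5, 28.5 and 32.9 to 43.0, 49.2, 52.6 and 41.9 CPM (0.62, FDR 7.71e-05), without overlap. Of 16 metallothionein and iron genes 6 fell and 0 rose, also without dKO_HFD replicate 4. Of 18 endothelial markers 3 fell and 1 rose (Kdr), and 3 fell and 0 rose without dKO_HFD replicate 4, with Emcn, a sialomucin of venous endothelium, at 5.91, 5.85, 4.56 and 6.27 CPM against 3.39, 3.42, 3.07 and 3.59 CPM (-0.76, FDR 0.00465). Of 19 hepatocyte markers 3 rose and 3 fell, and 0 and 1 rose without WT_HFD replicates 1 and 4, and 1 fell without dKO_HFD replicate 4. Among 8 dendritic cell markers 2 fell, 3 fell without dKO_HFD replicate 4, and 1 fell without any 1 of WT_HFD replicates 1 to 3 and dKO_HFD replicates 1 to 3. Among 4 B cell and 7 erythroid markers 0 were called. Of 3 adipocyte markers Lipe rose and Fabp4 fell, also without dKO_HFD replicate 4, and Plin1 was at 0 in all 8 libraries. The pancreas marker Cela1 rose by 0.64 (FDR 0.0449), and by 0.74 (FDR 0.03) without dKO_HFD replicate 4, while Cpa1, Ins1, Ins2, Ckm and Myh4 were at 0.

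A few genes differed by large factors with little spread. Gm4788 and C730036E19Rik were picked after their values were seen. Gm4788 (chr1:139697919-139781239), a complement factor H related gene, was at 2.57, 1.15, 2.1 and 2.18 CPM against 274, 301, 272 and 298 CPM (141-fold, 7.14, SE 0.22, FDR 8.16e-16). C730036E19Rik (chr1:151138034-151144095) was at 5.12 to 10.7 CPM against 81.3 to 98.5 CPM (3.60, FDR 6.86e-10). Insc, which orients the mitotic spindle, was at 0.487, 0.616, 0.701 and 0.872 CPM against 12.3, 12.9, 10.3 and 18 CPM (4.27, SE 0.22, FDR 7.35e-12). Cyp2c39, a cytochrome with near-identical neighbours, was at 504, 320, 504 and 275 CPM against 2.11, 1.81, 4.5 and 0.469 CPM (170-fold lower, -7.41, SE 0.40, FDR 6.86e-10). In IL4KO_HFD, which is compared with the same WT_HFD libraries, these genes differed by 6.81, 3.09, 3.72 and -6.62 in the same order, and in dKO_chow against WT_chow by 6.80, 2.61, 4.16 and -8.03. Within 10 Mb of Il10, 22 of 100 tested genes rose and 14 fell (36.0%), and within 10 Mb of Il4, 27 of 181 rose and 26 fell (29.3%), against 24.5% called over all tested genes.

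The comparison with IL4KO_HFD shows which differences were also found in libraries labelled IL-4 single knockout. The labels do not say whether the mice were littermates, so the knockout allele and the genetic background cannot be told apart. IL4KO_HFD differed from the same WT_HFD libraries at 389 genes (3.02% of tested genes), 223 higher (1.73%) and 166 lower (1.29%), and at 185 to 631 genes when single libraries were left out. Fitted without the other groups, it gave 95 genes, 41 higher and 54 lower. For that comparison 5 of the 25 lipogenesis genes fell, among them Fasn (-1.37 against -2.17 in the double knockout) and Acly (-1.17 against -1.53), and 5 cholesterol synthesis genes fell, among them Insig1 (-1.29 against -1.20) and Sc5d (-0.91 in both). Of the NRF2, cell cycle and cholangiocyte lists 0 members were called, and 1 type I interferon gene rose and 1 fell. Gclc differed by -0.39 (FDR 0.307), Mcm6 by -0.70 (FDR 0.343) and Epcam by -0.27 (FDR 0.824). A direct test of the double against the single knockout was not run, and IL4KO_HFD has 3 libraries. These were uneven, at -14.09, -54.54 and 16.6 on the second principal component, against -45.13 to -25.52 in WT_HFD. The part of this spread in the number of calls was not tested.

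On chow the same genotypes share no library with the comparison above, and 5966 genes were called (46.3%), 3148 higher (24.4%) and 2818 lower (21.9%). Upper quartile scaling gave 3748 higher and 2183 lower, and the deposited log2 values 3434 higher and 2127 lower. Of the 3157 called on the high-fat diet, 1416 were called on chow in the same direction (44.9% of the high-fat diet calls and 23.7% of the chow calls) and 194 in the opposite direction. The difference between the genotype effects of the 2 diets was called for 3254 genes (25.2%), 1624 higher (12.6%) and 1630 lower (12.6%), and for 2130 without dKO_HFD replicate 2. Cell cycle genes, of which 13 fell on the high-fat diet, rose in 15 and fell in 2 on chow, and the difference between diets was called lower in 17 of 27. For interferon gamma and antigen presentation, 22 rose and 0 fell on chow, and the difference was called lower in 26 of 37. Of the male-biased genes 1 rose and 11 fell on chow, and the difference was called higher in 16 of 30.

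Lipogenesis genes fell on both diets, with 13 lower and 1 higher on chow, and the difference between diets was called lower for 8 and higher for 2. Fasn differed by -2.17 on the high-fat diet and by -0.54 (FDR 0.0713) on chow, a difference of -1.63 (FDR 0.00371). NRF2 targets fell in 7 and rose in 1 on chow, and the difference between diets was called lower for 5 of 19 and higher for 0 (median -0.46). Gclc was not among them, with -1.19 and -1.13, whose difference was -0.06 (SE 0.24, FDR 0.887). Mup1 changed sign, with 3.67 on the high-fat diet and -3.88 on chow (difference 7.55, FDR 0.00352).

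**Figure D4:**
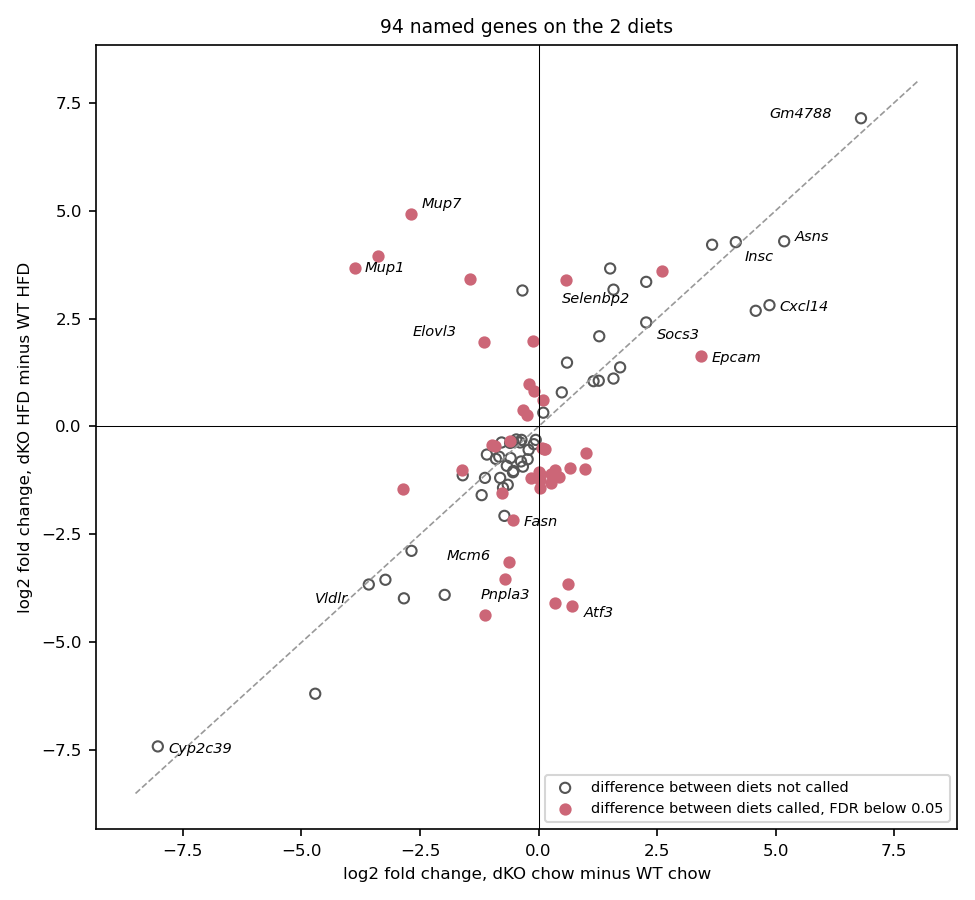
Log2 fold change of the 94 named genes in dKO against WT on the high-fat diet (vertical) and on chow (horizontal), filled where the difference between the diets was called at FDR below 0.05, with a dashed line where both would be equal. Gm4788 and Cyp2c39 lie near that line, Pnpla3 lies far below 0 on the high-fat diet (-4.09) and near 0 on chow, and Mup1 and Mup7 lie on opposite sides of 0.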

How the data were processed

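Total RNA of perfused livers was made into stranded mRNA libraries, as the labels' protocols state. Per the submitters' processing notes the tools were bcl2fastq 2.16, TopHat2 2.0.8 and Partek (version not given), with the mm10 build. The counting step, strand setting and annotation: not given in the sources used here. Estimated counts per gene symbol were deposited, as were log2 values for 14078 genes, used only in an alternative.

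After rounding to whole numbers, the deposited estimated counts were fitted with edgeR 4.0.16 in R 4.3.3: its filter by group (12891 of 24440 genes kept), trimmed mean of M values scaling, and 1 robust quasi-likelihood fit of 6 group means over 23 libraries (17 residual degrees of freedom, biological coefficient of variation 0.156). Standard errors were derived as the absolute log2 fold change over the square root of F. Gene positions, on GRCm38.p6 (the build of mm10), matched 12856 tested genes.

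The comparison, its gene lists and the named genes were chosen with earlier results of these data known, so the lists describe the data and are not independent evidence. Named were the targeted genes, up to 12 genes per direction ranked by size of change (called, not overlapping between libraries, and averaging 2 CPM or more in the group where the gene is higher, predicted genes left out), and up to 3 called members, by FDR, of each of the 26 lists (of 36) with at least 3 called members. With Gm4788 and C730036E19Rik, added after their values were seen, these came to 94 genes, and a few genes that the rule named are not reported here. Other list members are given as examples, chosen with their values known. On simulated data with 200 of 12891 genes changed, the fit of this comparison recovered 51.9%, 83.6% and 92.4% at 1.5-, 2- and 4-fold, and 3.8% of calls were false. The mice are separate animals per the series' design text. Replicate numbers follow sample order and pair nothing.

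Alternatives were relative log expression and upper quartile scaling, no filter and a stricter filter (2 CPM in 4 libraries), DESeq2 1.42.0, limma-voom and limma 3.58.1 on the deposited log2 values, no robust estimation, the compared groups alone and leaving out each library in turn. Read depth limits low genes: a count of 3 over a group, the floor used for a gene at 0, equals 0.0553 CPM in WT_HFD and 0.0417 CPM in dKO_HFD, and covers counting error only. Eosinophil, mast cell, muscle and pancreas markers were mostly untested (1 gene each list tested).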

Additional observations from a re-analysis of the deposited data

Results flagged for a closer look

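Among 188 sets of 4 values (94 named genes in WT_HFD and dKO_HFD), 18 held a library whose gap to its nearest neighbour exceeded the 95% critical value of the Dixon test for 4 values. For independent, normally distributed values about 5% of such sets would be flagged. The genes here were chosen from these same libraries and share them, so the count is a description and not a test against that share. Of the 18, 8 were in dKO_HFD replicate 4. dKO_HFD replicate 4 was high for Aif1 at 4.61 CPM (others 1.49 to 1.88), Asns at 39.4 CPM (others 2.03 to 7.46), Cxcl14 at 39.8 CPM (others 1.15 to 1.63), Socs3 at 70.8 CPM (others 7.66 to 11.3), Sox9 at 18 CPM (others 6.85 to 6.97) and Tff3 at 37.8 CPM (others 2.6 to 5.89). dKO_HFD replicate 4 was low for Apoa2 at 2845 CPM (others 4521 to 4618) and Fbp1 at 614 CPM (others 769 to 799). WT_HFD replicate 1 was high for Col6a1 at 25.4 CPM (others 18.2 to 19.4). WT_HFD replicate 2 was low for Gpam at 191 CPM (others 278 to 296). WT_HFD replicate 4 was high for Atf3 at 89.8 CPM (others 4.91 to 7.31), Hilpda at 12.5 CPM (others 4.79 to 6.0), Insig1 at 670 CPM (others 427 to 454) and Pdk4 at 65.7 CPM (others 28.8 to 31.4). WT_HFD replicate 4 was low for Aif1 at 3.6 CPM (others 4.91 to 5.0). dKO_HFD replicate 3 was high for Cyp2b13 at 0.557 CPM (others 0 to 0) and Vldlr at 5.76 CPM (others 1.02 to 1.81). dKO_HFD replicate 3 was low for Fasn at 295 CPM (others 390 to 404).

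For 42 named genes the genotype difference (dKO minus WT) differed between the diets by the interaction test (edgeR, FDR below 0.05). Values are the difference on the high-fat diet minus that on chow, in log2, with their signs. Higher can thus mean a smaller fall, as for Acaa1b (-1.45 on the high-fat diet, -2.85 on chow). Lower can mean a smaller rise, as for Epcam (1.63 and 3.43). The difference was higher on the high-fat diet for Mup7 (7.61), Mup1 (7.55), Mup15 (7.33), Mup14 (4.85), Elovl3 (3.11), Selenbp2 (2.81) and Cyp2c50 (2.11). Next among those came Acaa1b (1.41), F11 (1.18), C730036E19Rik (0.99), Irs1 (0.91), Creb3l3 (0.71), Ugt1a1 (0.59) and Apoa2 (0.55). The smallest of them were Clock (0.52), Kdr (0.52), Ndufb8 (0.45) and Sdhd (0.28). It was lower on the high-fat diet, and by the most, for Atf3 (-4.86), Pnpla3 (-4.44), Ffar4 (-4.26), Zbtb8b (-3.24), Kcne4 (-2.82) and Mcm6 (-2.51). Of these, Atf3 differed by -4.16 on the high-fat diet, but by -1.91 without WT_HFD replicate 4. Then followed Aif1 (-1.96), Epcam (-1.80), Fasn (-1.63), Tnfaip3 (-1.62), Mcm3 (-1.61) and Mcm4 (-1.61). Values nearer 0 were found for Abcc4 (-1.59), Gbp6 (-1.45), Col6a1 (-1.38), Gbp3 (-1.36), Hilpda (-1.27), Ifit3 (-1.13) and Usp18 (-1.07). The remaining genes were Insig1 (-1.03), Acly (-0.76), Dcn (-0.66), Bst2 (-0.62) and Ctsb (-0.58).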

How the results depend on the processing

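The comparison of dKO_HFD with WT_HFD gave 2282 to 3408 called genes under the settings that changed the tool, scaling, filter or samples fitted, and 2403 to 3003 when each library was left out in turn. The calls in dKO_chow against WT_chow ranged from 5196 to 5660 when each library was left out, and the difference between diets from 2130 to 4457, lowest without dKO_HFD replicate 2 and highest without dKO_HFD replicate 4. For IL4KO_HFD against WT_HFD the count was 95 when the compared groups were fitted alone and 185 to 631 when each library was left out, with 185 and 227 without IL4KO_HFD replicates 1 and 3, 227 and 186 without WT_HFD replicates 2 and 4, and 631 without IL4KO_HFD replicate 2. These fits hold fewer libraries than the main fit, and the cause of the changes was not tested. Upper quartile scaling gave for the difference between diets 1135 higher and 1832 lower, against 1624 and 1630. The deposited log2 values gave 1023 higher and 1724 lower for the difference between diets. Of the 94 named genes, 68 were called under every one of the 17 settings that tested them. Of 1590 such results, 79 kept their direction without passing the threshold and 1 changed sign: Cxcl14 was at -0.15 (FDR 0.747) without dKO_HFD replicate 4, the lowest of -0.15 to 3.22 when each library was left out. Without that library Kdr, Nfkbia, Serpina1e, Socs3 and Ttr were no longer called. Of 1224 counts of list members over these settings, 210 moved by over 1.5 times. No paired analysis was possible because the titles carry no replicate numbers, and the numbers used here follow sample order.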
